A study of Homo sapiens with 4 samples.

Results

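Integrins, laminins, kindlins and talins were followed in poly(A) RNA of H2030 cells, a long-established line from a human adenocarcinoma of the lung. The members were the genes of the deposited table whose symbols name an integrin alpha or beta chain, a laminin chain, a kindlin (FERMT) or a talin (TLN), 43 of 20252 genes. They comprised 18 alpha chains, 8 beta chains, 12 laminin chains, 3 kindlins and 2 talins. The study compared 2 libraries of H2030 cells labelled control vector with 2 labelled GALNT3 overexpression. All 4 came from cells at passage 5 to 10 kept for 2 days in RPMI with 10% fetal bovine serum, and no treatment was recorded. The labels gave neither the vector nor its promoter, nor whether the overexpressing line was 1 clone. Nor did they say whether both libraries of a group were grown as separate cultures, so the spread behind each p-value may be technical only. The groups are called vector-labelled and GALNT3-labelled libraries below.

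Integrins are surface receptors made of 1 alpha and 1 beta chain, and the pairing decides which matrix protein is bound. Talins and kindlins bind the cytoplasmic tails of beta chains and together switch the receptor to its active state. Laminins are trimers of an alpha, a beta and a gamma chain that form the basement membrane under epithelia and are bound by several of these receptors. GALNT3 belongs to the Golgi transferases that attach the first sugar of mucin-type O-glycans.

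GALNT3 stood at 4.34 and 5.34 FPKM (fragments scaled by transcript length and library total) in the vector-labelled libraries. It stood at 0.0164 and 0 FPKM in the GALNT3-labelled libraries, the opposite of the label. The files do not say why, and every direction below is that of the libraries as labelled. Depth relative to the mean of the 4 libraries ranged from 0.966 to 1.07, and the total number of reads is unknown. Of 6 epithelial markers, KRT7, KRT8 and KRT18 were above 1 FPKM, while KRT19 was listed at 0 in every library and EPCAM and CDH1 had means below 1. The summed epithelial list, mostly KRT18 and KRT8, was 448 to 518 FPKM in the vector-labelled libraries and 569 to 590 in the others. KRT8 was at 141 and 109 against 145 and 144 FPKM. KRT7 was lower in the GALNT3-labelled libraries, at 7.50 and 7.18 against 4.24 and 5.18 FPKM. The part of these markers in the results was not tested. Of 5 lung adenocarcinoma and alveolar markers, among them NKX2-1 and NAPSA, none reached a mean of 1 FPKM.

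Of the 43 members, 23 averaged 1 FPKM or more across all libraries and were tested with limma on log2(FPKM + 1), with p-values adjusted by the Benjamini-Hochberg method over all 10998 genes tested. FERMT1, which encodes kindlin-1, rose in the GALNT3-labelled libraries, and 0 members fell, against 0.109% of all tested genes called higher and 0.391% called lower, together 0.5% (adjusted p below 0.05). Among the larger of the other differences were lower values of the laminin chain LAMB3 and higher values of ITGB4 and ITGA1, and none of these passed. At an unadjusted p below 0.05 there were 5 members higher and 3 lower, against 3.62% and 3.72% of all genes, together 7.34%. Both GALNT3-labelled libraries exceeded both others in 10 of the 23 members and lay below them in 7. Over all tested genes these shares were 20.9% and 15.3%, together 36.2%. The median log2 change was 0.07 over the 23 members and 0.02 over all tested genes.

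**Figure D1:**
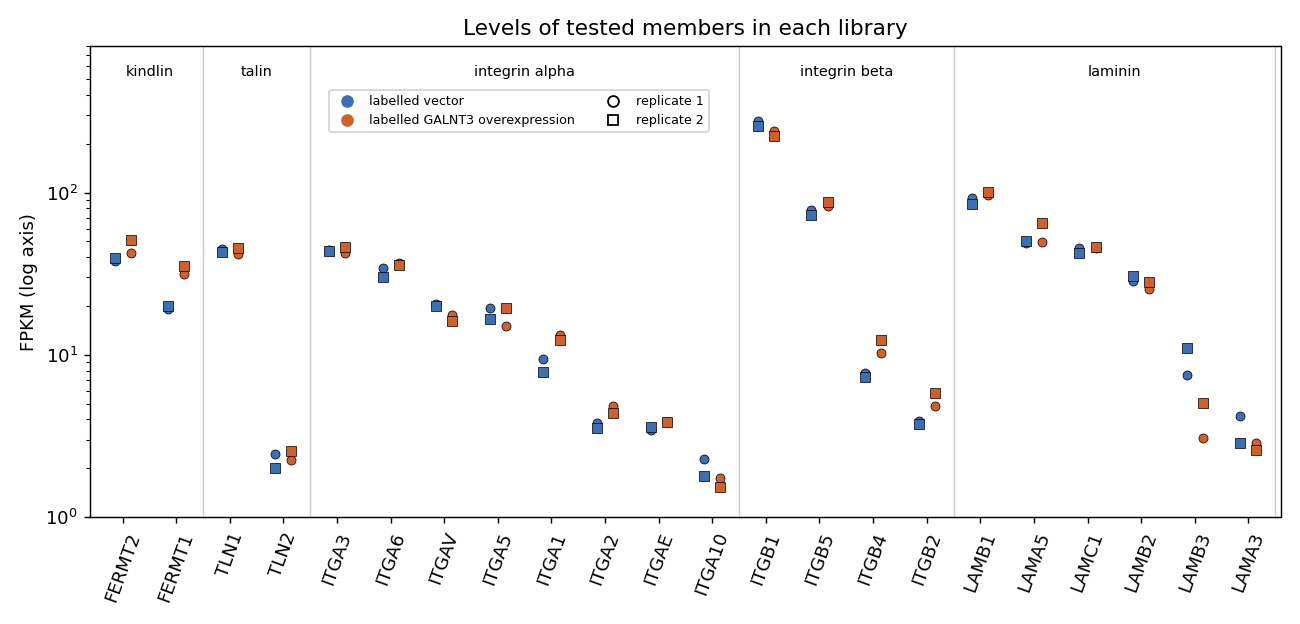
FPKM (log axis) of 22 tested members in each library, grouped by family, with vector-labelled libraries in blue and GALNT3-labelled in orange, circles for replicate 1 and squares for replicate 2. ITGB1 is the highest at 222 to 278 FPKM, and the groups stand clearly apart for FERMT1, while LAMB3 is lower in both GALNT3-labelled libraries but spread within groups.

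Kindlin-1, the epithelial kindlin, is lost in Kindler syndrome, a skin-blistering disease. FERMT1 was at 19.2 and 20.1 FPKM in the vector-labelled libraries and at 31.6 and 35.2 FPKM in the GALNT3-labelled libraries. Both of the latter lay well above both of the former, and libraries of a group differed far less than the groups did. The ratio of means was 1.70, and the log2 difference was 0.74 ± 0.09 (SE; limma, adjusted p = 0.0249). FERMT1 did not pass without vector replicate 1 (limma, adjusted p = 0.171), without vector replicate 2 (0.105), with quantile normalization (0.0741) or with every gene above 0 tested (0.152). Its log2 change stayed between 0.64 and 0.81 in all fits. FERMT1 is on chromosome 20, minus strand, from 6074845 to 6123544 (GRCh38, GENCODE 29), and no other protein-coding gene overlaps it there.

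FERMT2, encoding the widely expressed kindlin-2, was the more abundant kindlin in every library. It was at 37.8 and 39.5 FPKM in the vector-labelled libraries and 42.5 and 50.8 FPKM in the others, so the groups did not overlap. Its log2 change was 0.26 ± 0.11 (SE; limma, adjusted p = 0.656). The FPKM ratio of FERMT1 to FERMT2 was 0.508 in both vector-labelled libraries, and 0.744 and 0.694 in GALNT3-labelled replicates 1 and 2. On the log2(FPKM + 1) scale the difference between both genes shifted by 0.48 (exact permutation test, two-sided, p = 0.333, the smallest that 2 libraries against 2 allow). Adjusted over the 4 chain ratios compared, this was 0.444. FERMT3, the kindlin of blood cells, stayed between 0.468 and 0.757 FPKM and its groups overlapped.

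TLN1, the ubiquitous talin that links beta tails to actin, was at 44.9 and 42.8 FPKM in the vector-labelled libraries and at 42.0 and 45.2 FPKM in the others. Its log2 change was -0.01, with a 95% interval from -0.21 to 0.20. The muscle- and brain-enriched TLN2 was at 2.46 and 2.01 against 2.25 and 2.54 FPKM, with a 95% interval from -0.22 to 0.37. Both genes overlapped between the groups. Of the 2 talins 0 passed in limma, adjusted or unadjusted, against 0.5% and 7.34% of all tested genes.

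**Figure D2:**
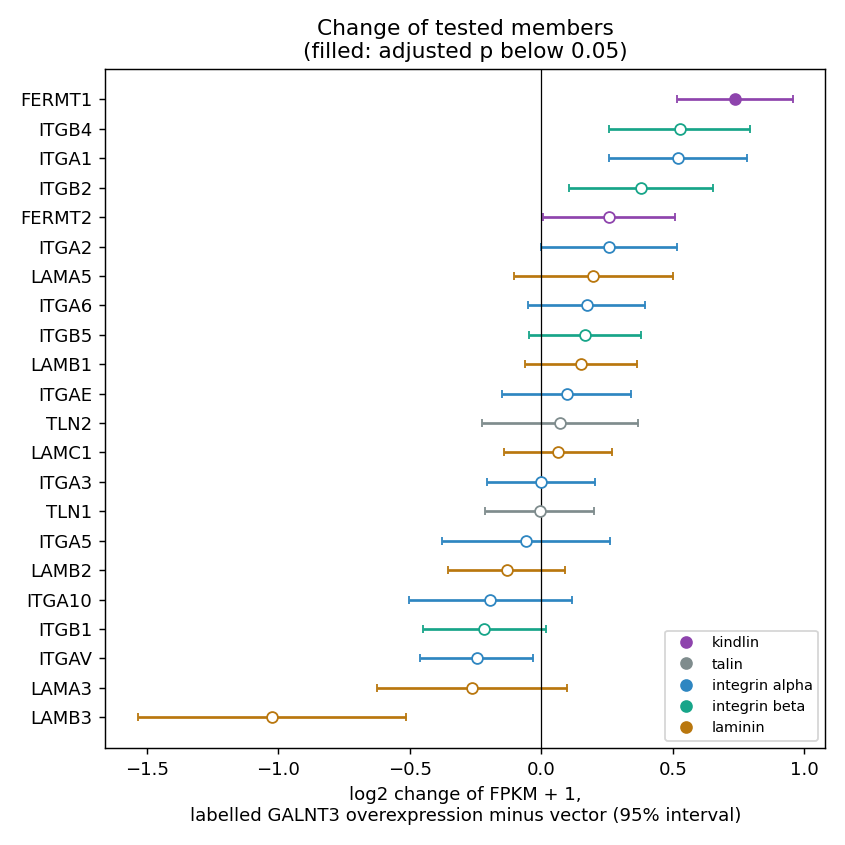
Log2 change of FPKM + 1 (GALNT3-labelled minus vector-labelled libraries) of 22 tested members, with 95% intervals from limma and colours by family. FERMT1, at 0.74, is the one filled point (adjusted p below 0.05), LAMB3 lies at -1.03, and TLN1 and ITGA3 lie close to 0.

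Laminin-332, which holds LAMA3 and LAMB3 as its alpha and beta chains, is the laminin that anchors stratified epithelia through hemidesmosomes. LAMB3 was at 7.52 and 10.98 FPKM in the vector-labelled libraries and at 3.09 and 5.03 FPKM in the others. The groups did not overlap, but libraries of 1 group differed by a large part of the difference between groups. The ratio of means was 2.28 and the log2 change -1.03 ± 0.22 (SE; limma, adjusted p = 0.166). It passed without GALNT3-labelled replicate 2 (limma, adjusted p = 0.00794), and had 0.194, 0.665 and 0.199 without vector replicate 1, vector replicate 2 and GALNT3-labelled replicate 1. Vector replicate 2 was highest and GALNT3-labelled replicate 1 lowest.

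LAMA3, the alpha chain of the same trimer, varied less between the groups. It was at 4.19 and 2.88 FPKM in the vector-labelled libraries and at 2.86 and 2.61 FPKM in the others. Vector replicate 1 stood high, and the remaining 3 libraries lay close together. Both GALNT3-labelled libraries were below both others, as in 15.3% of all tested genes, but vector replicate 2 was only just above GALNT3-labelled replicate 1. The log2 change was -0.26, with a 95% interval from -0.63 to 0.10 (limma, adjusted p = 0.793). The 250 bases before the RefSeq start of the alpha and beta chains of laminin-332 are shown because both belong to the same trimer. Capitals mark letters of the AP-1 motif (TGANTCA) and of the GC box (GGGCGG, here on the opposite strand). LAMA3 is at chr18:23872770-23873019, plus strand, and LAMB3 at chr1:209652426-209652675, minus strand (GRCh38.p14). The LAMA3 window lies within the GENCODE span of the gene (23689443 to 23956222), so it precedes an internal start. The last bases of the LAMB3 window also lie within the GENCODE span of that gene (209614870 to 209652466). Windows before other starts of LAMA3 are not shown, and which start the cells use was not tested.
LAMA3: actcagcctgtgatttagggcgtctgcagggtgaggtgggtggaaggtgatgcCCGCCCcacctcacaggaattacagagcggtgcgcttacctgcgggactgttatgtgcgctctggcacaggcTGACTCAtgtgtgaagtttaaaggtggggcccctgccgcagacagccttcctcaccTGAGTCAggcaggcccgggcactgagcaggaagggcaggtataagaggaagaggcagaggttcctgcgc
LAMB3: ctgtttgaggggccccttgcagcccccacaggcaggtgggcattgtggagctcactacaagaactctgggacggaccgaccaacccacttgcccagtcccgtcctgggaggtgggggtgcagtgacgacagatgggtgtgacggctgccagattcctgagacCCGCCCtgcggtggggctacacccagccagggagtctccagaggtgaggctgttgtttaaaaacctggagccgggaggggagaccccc

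The LAMA3 window held 2 AP-1 matches, starting 125 and 69 bases before that internal start, and the LAMB3 window none. Searched on both strands, the motif was present in 6.6% of 27305 RefSeq windows of the same length, and among 30 member windows in LAMA3 alone. The GC box was present in 42.3% of all windows and in 16 of the 30, including both shown. The TEAD motif (GGAATG) was in 11.9% of all windows and in 4 of the 30, ITGA10, ITGA5, ITGB1 and LAMA2. The TATA box (TATAAA) was in 11.1% of all windows and in ITGA6. No match overlapped another in the windows shown. These matches describe letters and not bound sites.

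The ratio of LAMB3 to LAMA3, both in FPKM, was 1.80 and 3.82 in the vector-labelled libraries and 1.08 and 1.93 in the others, which overlapped (log2 shift -0.76, exact permutation test, two-sided, p = 0.667, and 0.667 adjusted over 4 ratios). That shift was -0.31 without vector replicate 2 and -1.22 without vector replicate 1. LAMA3 was the scarcer of both chains in every library.

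**Figure D3:**
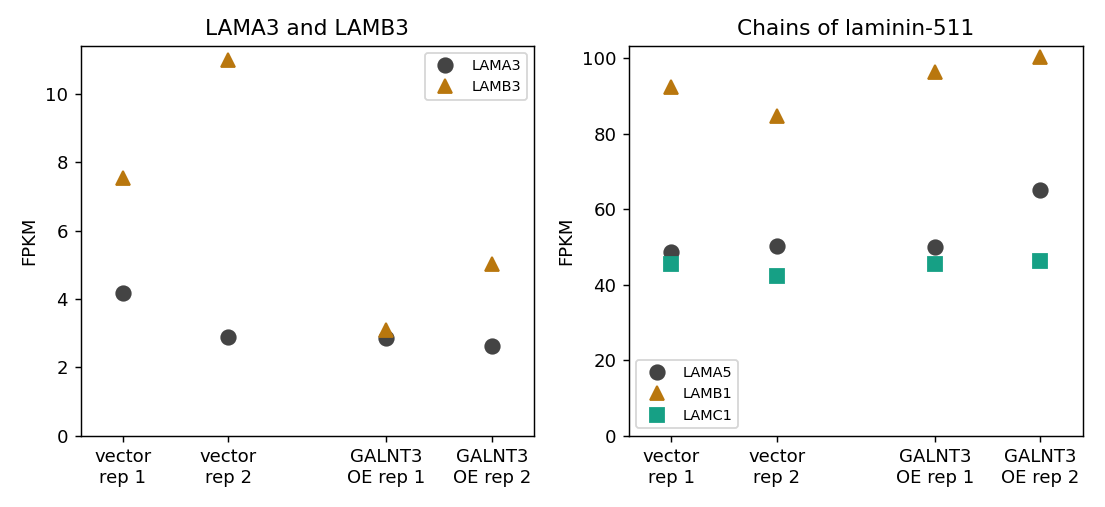
FPKM of LAMA3 and LAMB3 (left) and of the 3 chains of laminin-511 (right) in each library, with linear axes from 0. LAMB3 is lower in both GALNT3-labelled libraries, while LAMB1, LAMA5 and LAMC1 stay between 42.2 and 100 FPKM.

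The chains of laminin-511, a main laminin of simple epithelia, were far more abundant. LAMB1 was at 92.3 and 84.7 FPKM in the vector-labelled libraries and at 96.4 and 100.3 FPKM in the others. LAMA5 was at 48.8 and 50.3 against 49.9 and 65.1 FPKM, and LAMC1 at 45.5 and 42.2 against 45.5 and 46.2 FPKM. LAMB1 lay slightly higher in the GALNT3-labelled libraries, and the other chains overlapped between groups. The 95% intervals of their log2 changes were -0.06 to 0.37, -0.10 to 0.50 and -0.14 to 0.27.

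LAMB2, the beta chain of laminin-521, was at 28.6 and 30.6 against 25.5 and 28.3 FPKM (limma, adjusted p = 0.850). Of the 7 tested laminin chains 0 passed in limma, against 0.5% of all tested genes. LAMB3 was among those with an unadjusted p below 0.05, which 7.34% of all tested genes had. The other 5, LAMA1, LAMA2, LAMA4, LAMB4 and LAMC3, had means from 0.00133 to 0.739 FPKM. LAMA4 was listed at 0 in both GALNT3-labelled libraries and at 0.0581 and 0.00700 FPKM in the others.

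Among beta chains, ITGB4 pairs with ITGA6 to form the laminin-332 receptor of hemidesmosomes. It was at 7.78 and 7.27 FPKM in the vector-labelled libraries and at 10.3 and 12.4 FPKM in the GALNT3-labelled libraries. The groups did not overlap. The log2 change of ITGB4 was 0.53 ± 0.11 (SE; limma, adjusted p = 0.175), with a 95% interval from 0.26 to 0.79. The gene (chromosome 17, 75721328 to 75757818) overlaps GALK1 on the opposite strand, which was at 14.3, 12.7, 12.7 and 12.7 FPKM in vector replicates 1 and 2 and GALNT3-labelled replicates 1 and 2.

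ITGB1, the common partner of most alpha chains, was the most abundant member. It was at 278 and 258 FPKM in the vector-labelled libraries and at 239 and 222 FPKM in the others, and the log2 difference was -0.22 ± 0.10 (SE; limma, adjusted p = 0.721). ITGB5, a partner of ITGAV, was at 78.6 and 73.0 against 82.4 and 87.9 FPKM (adjusted p = 0.778). Neither gene overlapped between groups, and ITGB1 lay lower and ITGB5 higher, as 15.3% and 20.9% of all tested genes did.

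ITGB2, the beta chain of leukocyte integrins, was at 3.91 and 3.77 FPKM in the vector-labelled libraries and at 4.84 and 5.79 FPKM in the others, and the log2 difference was 0.38 ± 0.12 (SE; limma, adjusted p = 0.439). The 4 alpha chains that pair with it, ITGAL, ITGAM, ITGAX and ITGAD, were at most 0.0410 FPKM in any library. The leukocyte marker PTPRC was at 0.00983 FPKM in vector replicate 1 and listed at 0 in the others, and CD3E was listed at 0 throughout. Of 6 leukocyte markers only CD68 reached a mean of 1 FPKM, at 29.3 and 27.2 against 17.1 and 16.3 FPKM. The summed list, mostly CD68, was 27.5 to 30.7 FPKM in the vector-labelled libraries and 16.6 to 18.1 in the others. ITGB3, whose mean of 0.990 FPKM lay just under the limit for testing, was at 1.38, 0.824, 0.901 and 0.854 FPKM in vector replicates 1 and 2 and GALNT3-labelled replicates 1 and 2. ITGB6, ITGB7 and ITGB8 had means from 0.0501 to 0.530 FPKM. Of the 4 tested beta chains 0 passed in limma and 2, ITGB4 and ITGB2, had an unadjusted p below 0.05. Over all tested genes these shares were 0.5% and 7.34%.

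Among the tested alpha chains, ITGA1, ITGA2 and ITGA10 bind collagen with ITGB1. ITGA1 was at 9.39 and 7.84 FPKM in the vector-labelled libraries and at 13.2 and 12.3 FPKM in the others. The groups did not overlap, and the log2 change was 0.52 ± 0.11 (SE; limma, adjusted p = 0.167). PELO lies within ITGA1 on the same strand (chromosome 5, 52787896 to 52959210) and was at 20.7 and 19.4 against 21.6 and 23.1 FPKM, so fragments could be exchanged between both.

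ITGA2, the next tested gene along chromosome 5 beyond PELO, starts 30115 bases after ITGA1 ends. It was at 3.83 and 3.55 against 4.86 and 4.36 FPKM (log2 change 0.26, limma, adjusted p = 0.681). ITGA10, another collagen receptor chain, was at 2.27 and 1.79 against 1.75 and 1.53 FPKM. ITGA1 and ITGA2 thus lay higher and ITGA10 lower in both GALNT3-labelled libraries, as 20.9% and 15.3% of all tested genes did. Of the 3, 0 passed, and differences among them were not tested.

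ITGA3 and ITGA6, the laminin-binding alpha chains, were the most abundant of their family. ITGA3 was at 44.5 and 43.6 FPKM in the vector-labelled libraries and at 42.2 and 45.9 FPKM in the others, with a 95% interval of the log2 change from -0.21 to 0.21. ITGA6 was at 34.2 and 30.2 against 37.0 and 35.8 FPKM (log2 change 0.17, limma, adjusted p = 0.780). ITGA6 lay slightly higher in both GALNT3-labelled libraries, and ITGA3 overlapped.

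ITGAV and ITGA5 bind fibronectin and other ligands with an arginine-glycine-aspartate motif. ITGAV was at 20.7 and 19.9 FPKM in the vector-labelled libraries and at 17.7 and 16.3 FPKM in the others, and the log2 difference was -0.25 ± 0.09 (SE; limma, adjusted p = 0.582). ITGA5 was at 19.3 and 16.5 against 15.1 and 19.4 FPKM, and its groups overlapped. ITGAE, which pairs with ITGB7 on mucosal lymphocytes, was at 3.46 and 3.62 against 3.87 and 3.84 FPKM. ITGAE overlaps HASPIN on the opposite strand. The 10 other alpha chains had means of at most 0.589 FPKM, 8 of them below 0.1, and ITGA4 was listed at 0 in all libraries. Of the 8 tested alpha chains 0 passed in limma, and 2, ITGA1 and ITGAV, had an unadjusted p below 0.05. The shares over all tested genes were 0.5% and 7.34%.

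Whether chains differed as heterodimers was asked for the 9 known integrin pairs with both chains tested, of 24 listed. None held a chain that passed, against 0.5% of all tested genes. In 3 pairs both chains lay apart between groups in the same direction: ITGA6 with ITGB4 higher, and ITGAV and ITGA10 with ITGB1 lower. In 4 pairs the chains lay apart in opposite directions, namely ITGA1, ITGA2 and ITGA6 against ITGB1, and ITGAV against ITGB5. In the other 2, ITGA3 and ITGA5 with ITGB1, the alpha chain overlapped. The pairs share chains, so they are not independent. Of single tested genes, 20.9% lay apart with higher and 15.3% with lower values, and no such share was computed for pairs of genes.

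Within the ITGA6 and ITGB4 pair, the FPKM ratio of alpha to beta chain was 4.39 and 4.16 in the vector-labelled libraries and 3.60 and 2.89 in the others. The log2 shift was -0.35 (exact permutation test, two-sided, p = 0.333, and 0.444 adjusted over 4 ratios). ITGB4 was the scarcer chain in every library. In each pair with ITGB1 the alpha chain was the scarcer, by a wide margin. Receptor ITGB4 and the laminin-332 chain LAMB3 lay apart in opposite directions, with FERMT1 on the side of ITGB4.

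**Figure D4:**
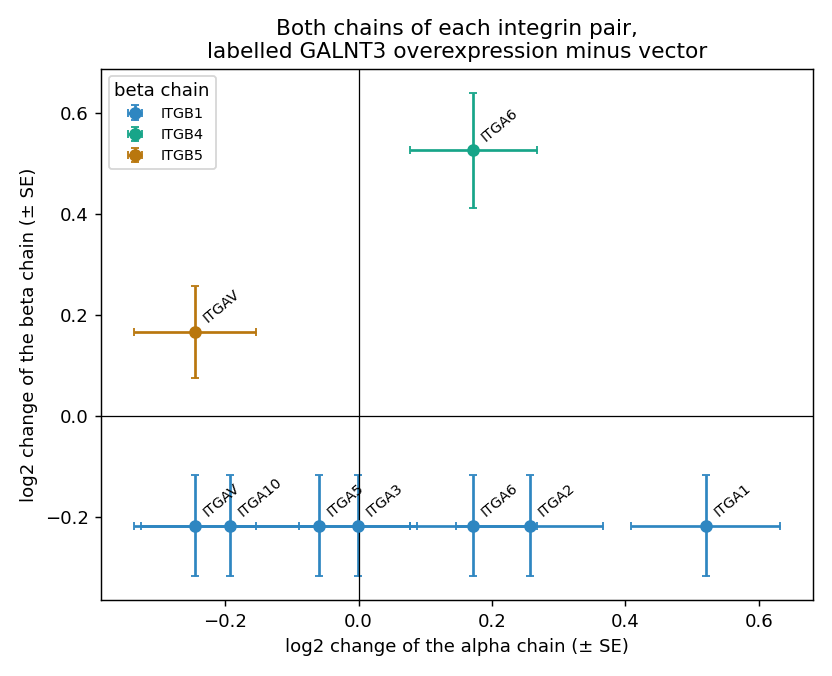
Log2 change (GALNT3-labelled minus vector-labelled libraries, ± SE) of the alpha chain against that of the beta chain for 9 integrin pairs, labelled by alpha chain and coloured by beta chain. The pair of ITGA6 and ITGB4 lies highest, at 0.17 and 0.53, and ITGB1 is at -0.22 with alpha chains from -0.25 to 0.52.

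Genes that work beside integrins and laminins were examined in 6 lists holding 118 genes, of which 85 were tested. None passed over all genes in limma, against 0.5% of all tested genes. At an unadjusted p below 0.05, 6 had higher and 7 lower values, against 3.62% and 3.72% of all tested genes, together 7.34%. The shares of 0.5% and 7.34% are also the background of the counts in each list. The median log2 change of the 85 genes was 0.02, the same as over all tested genes. The smallest p belonged to TNS4, a tensin that binds beta chain tails, at 14.7 and 10.5 FPKM in the vector-labelled libraries and 5.45 and 6.33 FPKM in the others (log2 change -0.97 ± 0.16 SE; limma, adjusted p = 0.0651). TNS4 lay clearly lower in both GALNT3-labelled libraries. TNS4 passed with genes listed at 0 left out (limma, adjusted p = 0.0246) and with a minimum mean of 5 FPKM (0.0408). The replicate block described below gave 0.00223. It did not pass with pseudocounts of 0.1 (limma, adjusted p = 0.0624) and 5 (0.0766), median centring (0.0803) or quantile normalization (0.117). Nor did TNS4 pass without the mean-variance trend (0.0807) or with every gene above 0 tested (0.314). With 1 library left out its log2 change ran from -1.19 to -0.74.

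In the list of adaptors and focal adhesion proteins, 0 of 25 tested genes passed and 4 had an unadjusted p below 0.05. Beside TNS4 these were PARVA, which links integrin-linked kinase to actin (2.25 ± 0.10 and 1.60 ± 0.03 FPKM), the filamin binder FBLIM1 (3.88 ± 0.33 and 2.92 ± 0.16 FPKM) and TES, a focal adhesion protein (27.3 ± 0.82 and 32.2 ± 0.26 FPKM; SD, n = 2, vector first). In the list of activators and inhibitors 0 of 13 passed, adjusted or unadjusted. CIB1, which binds the tail of the platelet alpha chain, had the smallest p of that list at 197 ± 1.8 and 228 ± 0.09 FPKM.

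Of 4 tested hemidesmosome partners 0 passed in limma, adjusted or unadjusted. PLEC, encoding plectin that ties ITGB4 to keratin filaments, was at 47.1 and 51.5 against 44.9 and 57.4 FPKM. The tetraspanin CD151 was at 86.1 and 85.1 against 78.7 and 87.3 FPKM. DST was at 27.3 and 24.2 against 29.5 and 21.8 FPKM. These 3 overlapped between the groups. ERBB2IP, encoding the ITGB4-binding protein erbin, was at 29.7 and 30.3 against 29.2 and 29.1 FPKM, slightly lower in both GALNT3-labelled libraries.

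Of 13 tested laminin-binding and basement membrane genes, 0 passed and 3 had an unadjusted p below 0.05. These were the matrix proteins SMOC1 (8.55 ± 2.8 and 4.82 ± 0.46 FPKM) and COL18A1 (4.21 ± 0.07 and 3.27 ± 0.49 FPKM) and the laminin-binding netrin NTN4 (44.1 ± 2.0 and 52.9 ± 1.9 FPKM; SD, n = 2, vector first). Of 19 other integrin ligands 0 passed and 5 had an unadjusted p below 0.05. Among them TGFBI, a matrix protein, was at 88.4 and 78.2 against 49.5 and 63.3 FPKM (limma, adjusted p = 0.218). ICAM1, a ligand of ITGB2 integrins, was at 6.17 and 6.47 against 7.83 and 8.73 FPKM. Of 11 tested tetraspanins and surface partners 0 passed and 1, the urokinase receptor PLAUR, had an unadjusted p below 0.05, at 44.1 and 42.95 against 58.3 and 56.6 FPKM.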

How the data were processed

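The authors deposited 1 table of FPKM values, 1 column per library. No header names the unit, which was inferred: values are fractional, and low ones move in steps that shrink with transcript length. Per the submitters' processing notes, the tools were GenomeStudio 2010.1 and TopHat and the builds hg19 and GRCh38. Roles, counting program and annotation are not given in the sources used. Per the labels' protocols the library kit was stranded. FPKM divides by library totals, so abundant genes can move all others.

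Genes averaging 1 FPKM or more were compared on log2(FPKM + 1), which understates changes of low genes, with limma 3.58.1 (mean-variance trend, group as the only term) in R 4.3.3. P-values are two-sided. The prior had 5.34 degrees of freedom beside 2 residual. The fit was tested on simulated data. Relative depth came from steps of values below 0.2 FPKM. Ratios of chains used exact permutation in Python 3.11.15. Positions are from GENCODE 29 by symbol and windows from RefSeq (30 of 43 members matched). Alternatives changed the pseudocount, filter, scaling, trend, replicate block and libraries used.

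Members and lists were chosen with earlier results of these data known. Any member with a mean of at least 1 FPKM could be named, with up to 4 partner genes per list by smallest p. Some members and markers are not reported here.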

Additional observations from a re-analysis of the deposited data

How the results depend on the processing

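All genes called numbered 12 with every gene above 0 tested, 31 with a minimum mean of 5 FPKM and 443 with the replicate block, against 55 as reported. They ran from 23 to 83 with 1 library left out. Members called higher, 1 as reported, numbered 0 with every gene above 0 and with quantile normalization, and 0 to 1 with 1 library left out. Members called lower, 0 as reported, numbered 1 with genes listed at 0 left out, and 0 to 2 with 1 library left out. Partner genes called lower, 0 as reported, numbered 1 (TNS4) with a minimum mean of 5 FPKM and 1 with genes listed at 0 left out, and 0 to 2 with 1 library left out.

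The replicate numbers of the labels are shared by both groups, but nothing says that they pair the libraries. Deviations of same-numbered libraries from their group means correlated at r = 0.22 across genes. With the replicate block 443 of all 10998 tested genes were called, higher and lower in nearly equal numbers, against 55 without the block. Calls thus became more frequent over all tested genes, and the following counts stand against that background. Among members 3 were called higher (FERMT1, ITGA1, ITGB4) and 3 lower (ITGB1 and LAMB3 among them). Among partner genes 5 were called higher (FGA, FGB, ICAM1, PLAUR, THBS1) and 3 lower (SMOC1, TGFBI, TNS4). The limma adjusted p with the block was 7.9e-05 for LAMB3 and 0.00223 for TNS4.

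With 1 library left out, log2 changes of genes near 0 took either sign: -0.0601 to 0.0579 for ITGA3, -0.233 to 0.115 for ITGA5, -0.0585 to 0.0452 for TLN1 and -0.0286 to 0.173 for TLN2. Median centring shifted the median of all genes by less than 0.1. The 4 ratios of chains kept their direction with each library left out and with pseudocounts of 0.1 and 5. Total depth is unknown, which limits statements on members below 1 FPKM.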

Other observations

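The genes beside 5 members on their chromosomes were looked up after the values were seen: the nearest 2 tested protein-coding genes on each side of FERMT1, LAMA3, LAMB3, ITGB4 and ITGA1. Of these 20 neighbours 0 passed in limma (smallest adjusted p = 0.661), against 0.5% of all tested genes. Their log2 changes ran from -0.30 to 0.33. The groups did not overlap in 10 of the 20, against 36.2% of all tested genes. ITGA2, itself a member, was among the 20. Beside FERMT1, the minichromosome maintenance gene MCM8 was at 12.7 and 14.0 FPKM in the vector-labelled libraries and at 11.8 and 14.0 FPKM in the GALNT3-labelled ones. CRLS1, the cardiolipin synthase gene, was at 4.84 and 4.73 against 5.17 and 5.19 FPKM. Beside LAMB3, the complement regulator CD46 was at 28.8 and 28.2 against 31.1 and 26.9 FPKM and C1orf74 at 2.76 and 2.74 against 2.75 and 2.62 FPKM.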
